A study of Homo sapiens with 36 samples.

Results

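Promyelocytes pack their first granules, the azurophil or primary granules, with myeloperoxidase, a family of neutrophil serine proteases and small antimicrobial proteins. The genes for these proteins are switched on together by the factors C/EBP, PU.1, RUNX and MYB in granulocyte and monocyte progenitors, and most of them are shut off again as the cells mature, while the proteins stay in the granules. Acute myeloid leukemia cells are arrested near this stage and often keep part of the program. The 10 genes described here were chosen by name from 59041 genes with a matched transcript. MPO makes the peroxidase that forms hypochlorous acid. ELANE, PRTN3 and CTSG encode the serine proteases neutrophil elastase, proteinase 3 and cathepsin G, AZU1 the protease-like antimicrobial protein azurocidin, and PRSS57 a further neutrophil serine protease. CFD encodes the complement protease factor D, LYZ lysozyme, and CST7 the cysteine protease inhibitor cystatin F. MS4A3 is a membrane protein of granulocyte-monocyte progenitors.

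RNA was sequenced from HL60, MOLM13 and OCIAML3 cells, which are established human acute myeloid leukemia lines. For 24 h, cells of each line received cytarabine at 0.1 µM, daunorubicin at 0.02 µM, both drugs together at those doses, or the solvent DMSO, with 3 biological replicates in each of the 12 groups and 36 libraries in all. Cytarabine, a nucleoside analog, stops DNA synthesis. Daunorubicin, an anthracycline, poisons topoisomerase II. HL60 and MOLM13 were grown in RPMI medium and OCIAML3 in alpha-MEM with more serum, so medium and line cannot be told apart in comparisons between lines. Each line is a single model of its disease, and the sources used here do not say that replicates were separate experiments, so p-values here cover only the spread among these libraries, which may be technical. Library totals lay between 25067734 and 47322144 estimated counts (median 32194478). The myeloid label fitted its markers, of which 7 of 8 in HL60, 6 of 8 in MOLM13 and 7 of 8 in OCIAML3 averaged at least 1 TPM (a transcript level corrected for length and library size) with DMSO.

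The libraries labelled OCIAML3 cytarabine replicate 3 and OCIAML3 combination replicate 3 were treated as doubtful. For 7 of the 8 tested granule genes, all but CTSG, the library labelled combination replicate 3 lay inside the range of the DMSO libraries. PRTN3, for example, was at 81.4, 115 and 307 CPM (counts scaled to the normalized library size) in combination replicates 1, 2 and 3, and at 356, 324 and 301 CPM with DMSO. Among these genes, cytarabine replicate 3 departed from its group mainly in PRTN3, at 230 CPM against 363 and 338 CPM. Its ELANE value lay between those of replicates 1 and 2, and CFD, LYZ and MPO lay close to 1 of them. OCIAML3 treatment results are therefore given with both libraries and then without them, and no library was relabelled.

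PRSS57, AZU1, PRTN3, ELANE and CFD lie on the short arm of chromosome 19 (GRCh38). PRSS57 is at chr19:685546-695498 on the minus strand, and AZU1 (chr19:825097-832018), PRTN3 (chr19:840999-848175), ELANE (chr19:851014-856247) and CFD (chr19:859453-867884) follow each other on the plus strand. MPO is at chr17:58269855-58280935 and CTSG at chr14:24573518-24576250, both on the minus strand. LYZ (chr12:69348381-69354234), CST7 (chr20:24949269-24959928) and MS4A3 (chr11:60056587-60071115) are on the plus strand. AZU1, PRTN3, ELANE and CFD have a second copy on an alternate contig of the assembly, identical in sequence for every annotated transcript of AZU1, PRTN3 and ELANE and for 6 of 7 of CFD. Reads of these genes can therefore be counted on transcripts that the files list under other identifiers.

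Unmatched transcripts were searched only at the lengths of annotated forms that the files lack, and at 908 bases. Copies of forms that the files list, which include every form of CFD and the matched PRTN3 form, were not looked for. Reads on such copies are therefore unknown. At the searched lengths AZU1 was touched most. Its matched transcript was listed at 0 in all 36 libraries, while an unmatched transcript of the length of its second form (1713 bases) carried 1373 to 2056 counts in HL60, 10920 to 13222 in MOLM13 and 8716 to 13787 in OCIAML3 with DMSO. AZU1 was not tested as listed, and a zero here is no measure of its expression. An unmatched transcript of the length of an ELANE form (1028 bases) carried 7772 to 8925 counts in MOLM13 and 4823 to 8462 in OCIAML3 with DMSO, beside 45091 to 48838 and 21370 to 32562 counts on the matched transcript of ELANE. An unmatched transcript of a PRTN3 length (1036 bases) never passed 410 counts. A further unmatched transcript of 908 bases, 1 base from the lengths of both AZU1 and ELANE, had 1329 to 1715 counts in HL60, 30174 to 34125 in MOLM13 and 7376 to 10394 in OCIAML3 with DMSO and was left unassigned. Values below come from matched transcripts unless same-length copies are named, and those copies were attributed by length alone, after the data had been seen.

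RefSeq promoter sequences (GRCh38.p14) were found for 6 of the 10 genes. Those of the chromosome 19 neighbours PRTN3 and AZU1 are shown because they share a letter-for-letter word, and those of CTSG and MS4A3 because their levels followed other patterns from a place outside the cluster. Each is 150 bases upstream of the start that RefSeq gives, 5′ to 3′ on the strand of the gene, with capitals marking the motif matches inside the printed bases. PRTN3 and AZU1 run from -150 to -1 (chr19:840849-840998 and chr19:827687-827836, plus strand), CTSG from -150 to -1 (chr14:24576251-24576400, minus strand), and MS4A3 from -228 to -79 (chr11:60056437-60056586, plus strand). The AZU1 start is that of its 907-base form and lies inside the gene interval, since the 1713-base form begins further upstream.
PRTN3: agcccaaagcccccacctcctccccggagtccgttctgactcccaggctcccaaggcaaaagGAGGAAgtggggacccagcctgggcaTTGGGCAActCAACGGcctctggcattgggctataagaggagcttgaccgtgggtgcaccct
AZU1: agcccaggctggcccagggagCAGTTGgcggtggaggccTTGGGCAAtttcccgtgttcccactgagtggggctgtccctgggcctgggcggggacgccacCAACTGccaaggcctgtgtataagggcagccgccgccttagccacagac
CTSG: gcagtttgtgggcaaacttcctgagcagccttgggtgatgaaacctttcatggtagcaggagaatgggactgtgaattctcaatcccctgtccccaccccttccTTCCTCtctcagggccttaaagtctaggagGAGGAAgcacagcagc
MS4A3: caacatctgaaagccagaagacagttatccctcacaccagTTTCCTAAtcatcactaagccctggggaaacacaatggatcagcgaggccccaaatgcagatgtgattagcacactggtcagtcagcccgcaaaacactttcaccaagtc

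PRTN3 and AZU1 both hold TTGGGCAA, the opposite-strand form of the C/EBP word TTNCNNAA, at -62 and -111. PRTN3 also holds the PU.1 word GAGGAA at -88 and the MYB word CAACGG at -52, and AZU1 holds CAACTG at -49 and its reverse complement CAGTTG at -129. CTSG holds GAGGAA at -16 and its reverse complement TTCCTC at -46, and the printed MS4A3 stretch holds TTTCCTAA at -188. Over 250 bases before to 50 after the start and both strands, TTNCNNAA was in 4 of the 6 promoters and in 36.8% of 35116 promoters, GAGGAA in 3 of 6 and 27.9%, the MYB word CAACNG in 4 of 6 and 32.9%, the RUNX word TGTGGT in 1 of 6 and 13.1%, and TATAAA in 0 of 6 and 11.5%. None of the capital stretches overlap. These matches describe letters only.

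The lines differed first in which granule genes they used. On the TPM scale, which corrects for transcript length, HL60 with DMSO was led by PRTN3 and MPO, MOLM13 by PRTN3 and ELANE, and OCIAML3 by CTSG and ELANE. Summed over the 10 genes as listed, granule transcripts made up 0.264 to 0.477% of all TPM in HL60, 1.38 to 1.49% in MOLM13 and 0.555 to 0.616% in OCIAML3. Of 9 tested genes, 8 differed between HL60 and MOLM13 (2 higher and 6 lower in HL60). Over all genes 30.6% were called in that comparison, 9.90% higher and 20.7% lower. All 9 differed between HL60 and OCIAML3 (4 higher and 5 lower in HL60), beside 38.3% of all genes (12.5% higher, 25.8% lower). Between MOLM13 and OCIAML3, 8 differed (6 higher and 2 lower in MOLM13), beside 30.9% of all genes (13.1% higher, 17.8% lower). A call is a Benjamini-Hochberg false discovery rate under 0.05 in edgeR's quasi-likelihood test with a log2 difference over 1 in size. The median log2 difference of the tested granule genes was -2.17, -1.68 and 1.37 in these 3 comparisons, against -0.03, -0.09 and -0.01 over all genes tested.

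MPO had 986, 1518 and 1278 TPM in HL60 replicates, 22.2, 18.4 and 20.8 TPM in MOLM13 and 1.08, 0.967 and 1.23 TPM in OCIAML3. No line overlapped another, and the fitted differences were 6.02 (SE 0.12) for HL60 against MOLM13 and 10.57 (SE 0.15) for HL60 against OCIAML3. PRTN3 ran in a different order, with 1232, 2732 and 1828 TPM in HL60, 9277, 9233 and 9376 TPM in MOLM13 and 565, 492 and 482 TPM in OCIAML3. MOLM13 was the highest of the lines for proteinase 3, and HL60 was at -2.23 (SE 0.17) against it on the log2 scale. ELANE, its neighbour, was close to absent in HL60, where 1, 2 and 10 counts were listed, against 2321, 2306 and 2395 TPM in MOLM13 and 1175, 1217 and 1286 TPM in OCIAML3. The same-length ELANE copy was at 0 in all 3 HL60 DMSO libraries, and reads of ELANE on the unassigned transcript cannot be told apart from those of AZU1. The fitted differences of -13.39 (SE 0.21) and -12.20 (SE 0.21) rest on these few counts and depend on the prior count.

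CTSG had 96.8, 179 and 164 TPM in HL60, 251, 260 and 239 TPM in MOLM13, and 2545, 2736 and 3201 TPM in OCIAML3, where it led the group. HL60 and MOLM13 did not overlap, but their difference of -0.73 (SE 0.15) stayed under the fold threshold. PRSS57 had 26.2, 22.7 and 23.3 TPM in HL60, 611, 729 and 696 TPM in MOLM13 and only 3 to 6 counts per library in OCIAML3. Its difference between MOLM13 and OCIAML3 was the widest of the tested genes between those lines. CFD was the most even, at 90.9 to 123.1 TPM in HL60, 469 to 563 TPM in MOLM13 and 379 to 498 TPM in OCIAML3. MOLM13 and OCIAML3 overlapped for CFD, with a difference of 0.49 (SE 0.13).

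LYZ had 6.57, 6.503 and 4.31 TPM in HL60, 714, 1757 and 1008 TPM in MOLM13 and 641, 532 and 450 TPM in OCIAML3. Lysozyme was thus low in HL60 alone, at -7.59 (SE 0.38) against MOLM13, and its difference of 1.37 (SE 0.28) between MOLM13 and OCIAML3 was 0.93 and no longer called without MOLM13 DMSO replicate 2. MS4A3 had 12.4 to 20.0 TPM in HL60, 35.8 to 68.2 TPM in MOLM13 and 229 to 311 TPM in OCIAML3. CST7 ran the other way, at 140 to 187, 65.2 to 86.0 and 9.11 to 12.4 TPM in the same lines. With same-length copies added, AZU1 was at 47.1 to 71.5 CPM in HL60, 362 to 458 CPM in MOLM13 and 284 to 370 CPM in OCIAML3, with HL60 lower than MOLM13 by a log2 difference of -2.91 (SE 0.16, edgeR adjusted p = 1.93e-08) and lower than OCIAML3 by -2.53 (SE 0.15, adjusted p = 4.13e-08).

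**Figure D1:**
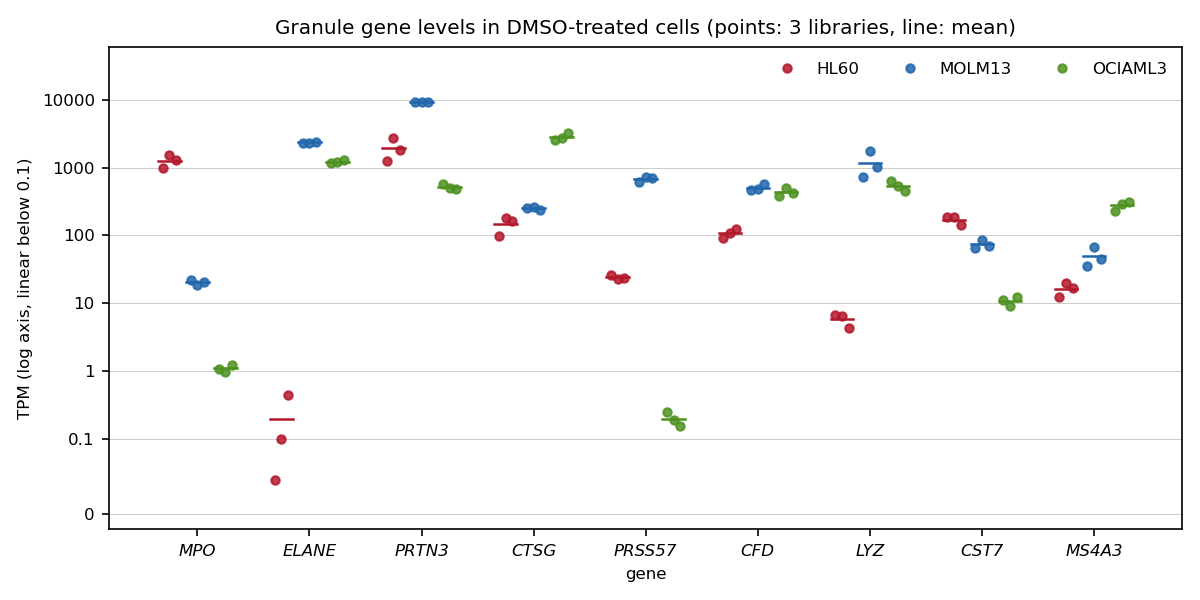
Level of each granule gene with DMSO in TPM, on an axis that is linear near 0 and logarithmic above, for HL60, MOLM13 and OCIAML3, with points for the 3 libraries and a line at the mean. MPO is highest in HL60 and lowest in OCIAML3, ELANE is near 0 in HL60 alone, and PRSS57 is near 0 in OCIAML3 alone. AZU1 is not drawn.

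Within a line, some neighbours in the order of TPM could not be separated. In HL60 the replicate ranges of PRTN3 and MPO overlapped, as did those of CST7 and CTSG and of CTSG and CFD, while PRSS57, MS4A3 and LYZ each stood clear of the next. In MOLM13 only LYZ with PRSS57 and CST7 with MS4A3 overlapped among neighbours in the order. In OCIAML3 LYZ overlapped with PRTN3 and PRTN3 with CFD, and the other neighbours did not overlap.

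In HL60, the 2 most abundant granule genes, MPO and PRTN3, fell after cytarabine and after the combination, and daunorubicin alone gave no call. Of 8 tested granule genes, 4 were called after cytarabine (MPO, PRTN3 and MS4A3 lower, LYZ higher), where 16.9% of all genes were called (13.7% higher, 3.12% lower). The same 4 were called after the combination, where 23.3% of all genes were called (17.0% higher, 6.29% lower). After daunorubicin 0 of 8 were called by edgeR's quasi-likelihood test or by DESeq2, 1 had an unadjusted p under 0.05, and 7.30% of all genes were called. With no fold threshold PRSS57 was called, beside 21.9% of all genes. The median log2 difference of the 8 genes was -0.38 with cytarabine, 0.04 with daunorubicin and -0.78 with both, against 0.01, 0.01 and 0.04 over all genes. The sum of the 10 genes was 0.0932 to 0.125% of TPM after cytarabine, 0.202 to 0.365% after daunorubicin and 0.0507 to 0.0775% after the combination, so only the daunorubicin libraries overlapped those with DMSO. In RNA of a whole culture, fewer cells of a type and less RNA per cell cannot be told apart.

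MPO was at 1025, 1279 and 1512 CPM after cytarabine, 2519, 2746 and 4016 CPM after daunorubicin and 702, 476 and 848 CPM after the combination, against 3129, 3927 and 3620 CPM with DMSO. Cytarabine and combination libraries lay below every DMSO library, and daunorubicin libraries overlapped them. The log2 difference was -1.48 (SE 0.22, edgeR adjusted p = 0.000144) after cytarabine, -0.20 (SE 0.21, adjusted p = 0.541) after daunorubicin and -2.40 (SE 0.22, adjusted p = 2.9e-06) after the combination. The combination differed from the sum of both single-drug values by -0.71 (SE 0.30), which did not pass (adjusted p = 0.199). With the replicate number as a block it was -0.68 and passed (adjusted p = 0.0464).

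PRTN3 was at 87.8, 146 and 152 CPM after cytarabine, 559, 791 and 1447 CPM after daunorubicin and 55.8, 0 and 52.6 CPM after the combination, against 1103, 2045 and 1491 CPM with DMSO. The cytarabine and combination libraries were again clear of DMSO, by a log2 difference of -3.59 (SE 0.97, edgeR adjusted p = 0.00852) and of -5.42 (SE 1.07, adjusted p = 0.000778), and daunorubicin stood at -0.73 (SE 0.88, adjusted p = 0.6). The exact 0 in combination replicate 2 stands beside replicates with 2087 and 1671 counts, and the unmatched transcript of a PRTN3 length had 17.0 counts there. Copies of the matched PRTN3 form were not looked for, and how the reads were split between copies was not tested. Without that library the combination stood at -4.84 (SE 0.44, adjusted p = 8.95e-06), a 28.6-fold lower level, and cytarabine at -3.59 (SE 0.35, adjusted p = 1.53e-05). Proteinase 3 thus had the largest fitted fall of the 8 genes after both treatments, with or without the library.

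**Figure D2:**
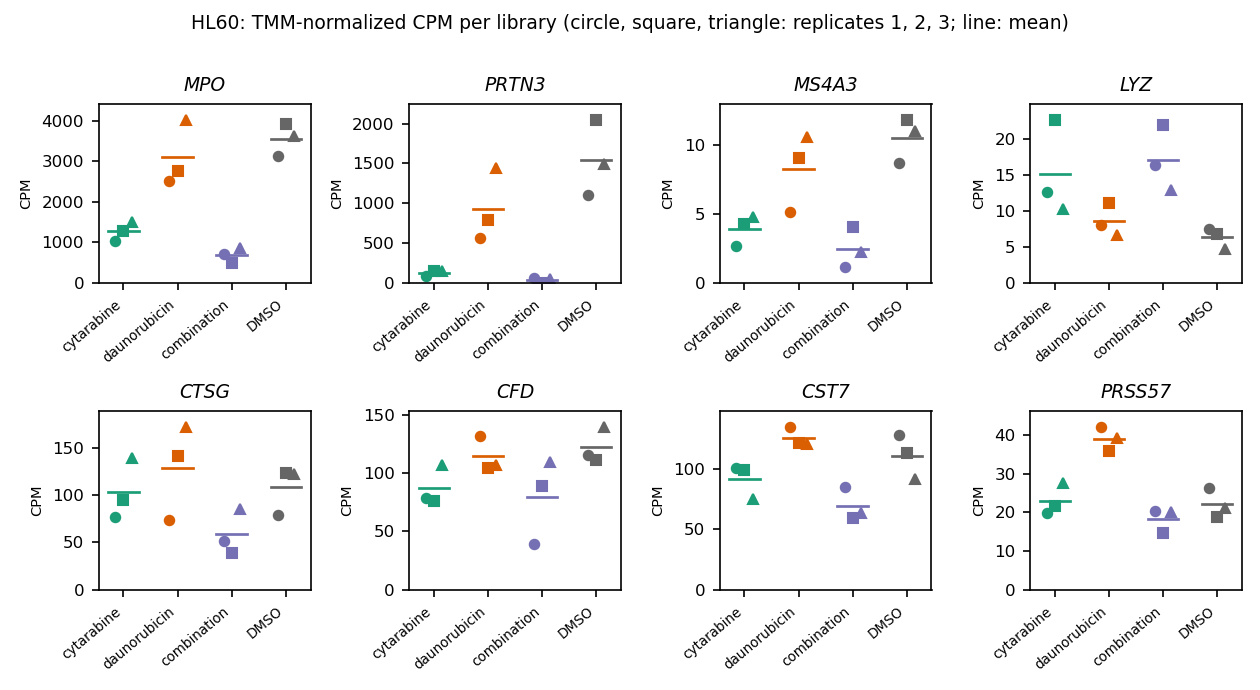
Granule genes in HL60 after cytarabine, daunorubicin, the combination and DMSO, in CPM on a linear axis from 0 in each panel, with points for the 3 libraries and a line at the mean. MPO and PRTN3 lie below DMSO after cytarabine and lower after the combination (675 ± 187 against 3559 ± 402 CPM for MPO, SD), and LYZ lies above it.

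MS4A3, at a far lower level, behaved alike with 2.67, 4.29 and 4.74 CPM after cytarabine, 5.15, 9.02 and 10.6 CPM after daunorubicin and 1.18, 4.03 and 2.20 CPM after the combination, against 8.70, 11.8 and 11.02 CPM with DMSO. Cytarabine (-1.43, SE 0.38, edgeR adjusted p = 0.00761) and the combination (-2.08, SE 0.39, adjusted p = 0.000536) did not overlap DMSO, and daunorubicin did. LYZ moved in the opposite direction, with 12.6, 22.7 and 10.2 CPM after cytarabine, 7.98, 11.1 and 6.63 CPM after daunorubicin and 16.4, 22.04 and 12.9 CPM after the combination, against 7.48, 6.78 and 4.70 CPM with DMSO. Lysozyme rose by 1.26 (SE 0.31, adjusted p = 0.00446) after cytarabine and by 1.44 (SE 0.31, adjusted p = 0.00145) after the combination. Without cytarabine replicate 2 the first of these was 0.85 and below the fold threshold.

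The remaining HL60 genes moved less. CST7 stood at -0.68 (SE 0.16, edgeR adjusted p = 0.00265) after the combination, past the false discovery rate but not the fold threshold, with 84.97, 59.8 and 64.0 CPM against 129, 113 and 91.6 CPM with DMSO, ranges that did not overlap. CTSG stood at -0.89 (SE 0.33, adjusted p = 0.0375) after the combination and at -0.07 (SE 0.33) after cytarabine, and its combination value was called without DMSO replicate 1 (-1.08) or without combination replicate 3 (-1.26). PRSS57 was the only tested granule gene past the false discovery rate after daunorubicin, a rule that 21.9% of all genes passed. It was at 42.1, 35.8 and 39.2 CPM after daunorubicin against 26.4, 18.8 and 21.0 CPM with DMSO. All 3 daunorubicin libraries were higher, by 0.82 (SE 0.17, adjusted p = 0.00498), under the fold threshold. CFD stood at -0.49, -0.09 and -0.63 (SE 0.27 each) after cytarabine, daunorubicin and the combination, none past the false discovery rate threshold. ELANE, with 0 to 14 counts in any HL60 library, was not tested.

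With same-length copies added, AZU1 was called lower after cytarabine and after the combination, but neither call held once the unassigned transcript of 908 bases was added to AZU1 as well. It was at 29.4, 24.6 and 20.7 CPM after cytarabine, 54.3, 41.6 and 45.7 CPM after daunorubicin and 34.7, 24.1 and 24.3 CPM after the combination, against 53.1, 71.5 and 47.1 CPM with DMSO. Cytarabine (-1.20, SE 0.19, edgeR adjusted p = 0.000255) and the combination (-1.05, SE 0.19, adjusted p = 0.000434) did not overlap DMSO, whereas daunorubicin did (-0.28, SE 0.19). That makes 5 of 9 tested genes called after either treatment, with 16.9% and 23.3% of all genes called in these fits. With the unassigned transcript also added, AZU1 stood at -0.75 (SE 0.11, adjusted p = 0.000139) after cytarabine and at -0.82 (SE 0.11, adjusted p = 3.71e-05) after the combination, both under the fold threshold. Added to ELANE instead, that transcript gave ELANE -0.39 (SE 0.16) and -0.62 (SE 0.16), neither called.

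Whether the combination exceeded the sum of both drugs was tested as combination minus cytarabine minus daunorubicin plus DMSO on the log2 scale, with the false discovery rate as the only threshold. In HL60 all 8 values lay below 0, and PRSS57 alone passed, at -1.14 (SE 0.24, edgeR adjusted p = 0.0174), with 5.14% of all genes called. With the replicate number as a block, by which HL60 libraries deviated together, 4 of 8 passed, namely MPO (-0.68, adjusted p = 0.0464), CTSG (-1.01, adjusted p = 0.0216), CST7 (-0.59, adjusted p = 0.0111) and PRSS57. The 5.14% belongs to the fit without the block. The share of all genes called with the block is not given here, so these 4 cannot be set against it. In the fit without the block, PRSS57 lost the call when DMSO replicate 3 or daunorubicin replicate 1 was left out.

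Markers of other cell types were summed beside these values. The summed TPM of 6 monocyte markers was 8.20 to 12.8 after cytarabine, 4.30 to 8.49 after daunorubicin and 9.13 to 15.4 after the combination, against 2.97 to 5.09 with DMSO in HL60. The 8 myeloid markers summed to 436 to 588, 504 to 537 and 450 to 600 TPM, against 460 to 576 TPM with DMSO. The 3 B cell markers summed to 11.9 to 14.4, 4.87 to 9.28 and 12.5 to 15.9 TPM, against 2.57 to 3.13 TPM with DMSO, with MS4A1, a defining B cell gene, at 0 in each group. The 3 T cell markers summed to 0.793 to 1.22, 0.241 to 0.559 and 0.838 to 1.55 TPM, against 0 to 0.117 TPM with DMSO. The 2 stromal markers summed to 0.561 to 1.44, 0.504 to 0.938 and 0.797 to 1.05 TPM, against 0.00559 to 0.235 TPM with DMSO. The B cell, T cell and stromal sums were higher in every treated library than in any with DMSO, while for monocyte markers the daunorubicin libraries overlapped those with DMSO. Erythroid and epithelial markers stayed at or below 0.113 TPM. The part of these markers in the granule gene results was not tested.

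Other genes of the granule program in HL60 were counted beside the 10. Over all genes 13.7% were called higher after cytarabine, and 17.0% higher and 6.29% lower after the combination. Of 8 tested genes for other azurophil or eosinophil granule cargo, BPI, a bactericidal protein, rose after the combination (11.4 ± 5.14 against 2.56 ± 0.787 CPM, SD), and PRG2 (573 ± 257 against 1630 ± 738 CPM), EPX and RNASE3 fell. Of 13 tested genes of the later specific and gelatinase granules, 11 rose and 0 fell after cytarabine and also after the combination, with medians of 2.50 and 3.11 against 0.01 and 0.04 over all genes. Most of them stayed low, such as CYBB at 36.4 ± 17.3 CPM and CHI3L1 at 36.5 ± 8.15 CPM after the combination against 4.22 ± 1.24 and 4.08 ± 1.26 CPM with DMSO. Of 11 tested monocyte and macrophage genes 8 rose after the combination. Among 18 tested factors that regulate granule genes, MYB (139 ± 4.47 against 325 ± 11.7 CPM), MYC (172 ± 44.6 against 698 ± 118 CPM) and CEBPA (289 ± 16 against 583 ± 28.1 CPM) fell after the combination and CEBPB, EGR1, EGR2 and KLF4 rose. Of 11 tested protease inhibitors 5 rose, among them SERPINB1, an inhibitor of these serine proteases, at 105 ± 18.7 against 34.4 ± 5.28 CPM, while SERPINB10 (4.4 ± 1.75 against 20.2 ± 6.84 CPM) and SERPINB2 (0.517 ± 0.239 against 1.28 ± 0.397 CPM) fell. Of 21 tested lysosomal hydrolases 5 rose and 0 fell, and of 19 sorting genes 2 rose and 0 fell. Of 13 tested neighbours on chromosome 19, ABCA7 and PALM rose and PLPPR3 fell.

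**Figure D3:**
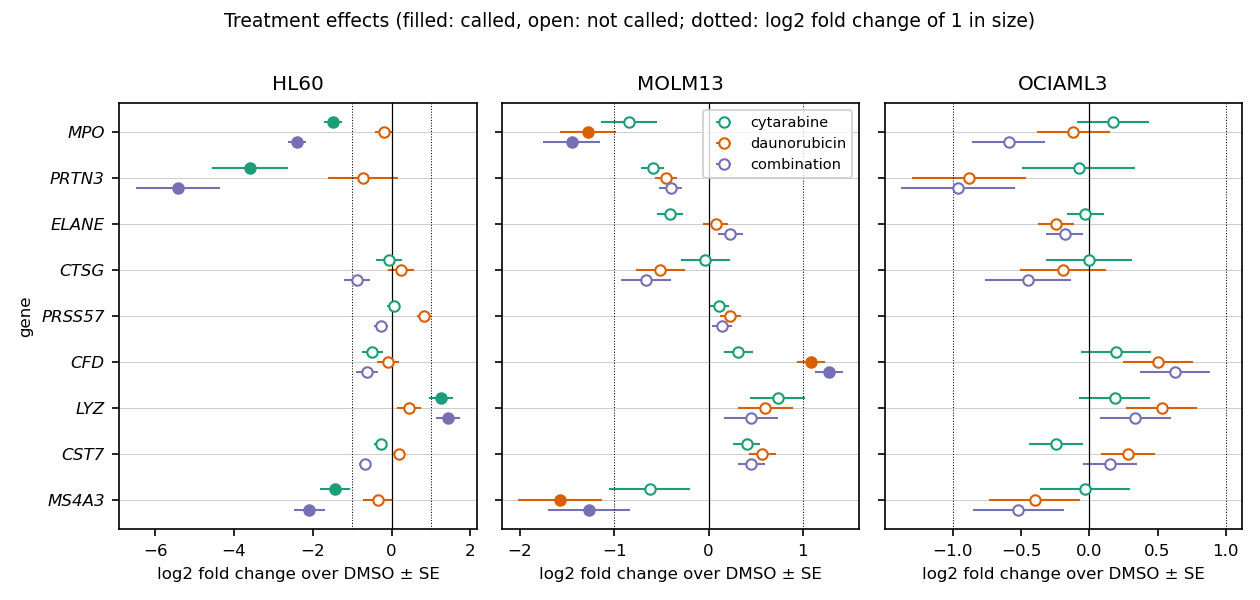
Log2 difference from DMSO of each tested granule gene after each treatment, with its standard error, in a panel per line. Each panel has its own horizontal scale. HL60 holds the largest differences (PRTN3 at -5.42 after the combination), MOLM13 shows CFD to the right and MPO and MS4A3 to the left after daunorubicin and the combination, and in OCIAML3 no value was called.

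In MOLM13, the line with the most granule transcript, granule genes were called after daunorubicin and the combination but not after cytarabine. After cytarabine 0 of 9 tested genes were called by edgeR's quasi-likelihood test or by DESeq2, with 5 at an unadjusted p under 0.05 and 8.13% of all genes called. With no fold threshold 4 were called, beside 34.9% of all genes. After daunorubicin 3 of 9 were called (MPO and MS4A3 lower, CFD higher), beside 17.0% of all genes (11.3% higher, 5.71% lower). The same 3 were called after the combination, beside 17.4% (11.8% higher, 5.61% lower). With no fold threshold 5 were called after each, beside 52.7% and 53.1% of all genes. Medians over the 9 genes were -0.03, 0.07 and 0.14 after cytarabine, daunorubicin and the combination, against 0.03, 0.07 and 0.07 over all genes. The sum of the 10 genes was 1.14 to 1.24% of TPM after cytarabine, 1.17 to 1.45% after daunorubicin and 1.27 to 1.42% after the combination, beside 1.38 to 1.49% with DMSO. The 6 monocyte markers summed to 62.7 to 74.5, 61.6 to 69.9 and 65.3 to 75.1 TPM, against 38.6 to 47.0 TPM with DMSO, and their part in the result was not tested.

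MPO, already low in MOLM13, was at 28.9, 29.8 and 26.5 CPM after cytarabine, 18.8, 26.8 and 17.5 CPM after daunorubicin and 30.1, 15.2 and 10.5 CPM after the combination, against 55.9, 47.7 and 49.4 CPM with DMSO. All 9 treated libraries lay below all 3 with DMSO, by -0.84 (SE 0.30, edgeR adjusted p = 0.0454), -1.28 (SE 0.30, adjusted p = 0.00404) and -1.45 (SE 0.30, adjusted p = 0.00191). MS4A3 had 6.17, 19.5 and 4.86 CPM after daunorubicin and 13.7, 13.6 and 10.4 CPM after the combination, against 19.7, 42.4 and 28.9 CPM with DMSO. Its ranges were separate, at -1.57 (SE 0.44, adjusted p = 0.0107) and -1.27 (SE 0.43, adjusted p = 0.0282), but the combination lost the call without DMSO replicate 2 (-0.95), DMSO replicate 3 (-1.31), combination replicate 2 (-1.34) or combination replicate 3 (-1.17).

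CFD, the complement factor D gene, ran the other way with 660, 630 and 617 CPM after cytarabine, 1043, 1241 and 968 CPM after daunorubicin and 909, 1365 and 1428 CPM after the combination, against 466, 507 and 559 CPM with DMSO. Every treated library was above every DMSO library. CFD rose by 1.09 (SE 0.15, edgeR adjusted p = 0.000129) after daunorubicin and by 1.27 (SE 0.15, adjusted p = 5.13e-05) after the combination, and stood at 0.32 (SE 0.15, adjusted p = 0.123) after cytarabine. Without daunorubicin replicate 2 its daunorubicin value was 0.95, under the fold threshold.

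**Figure D4:**
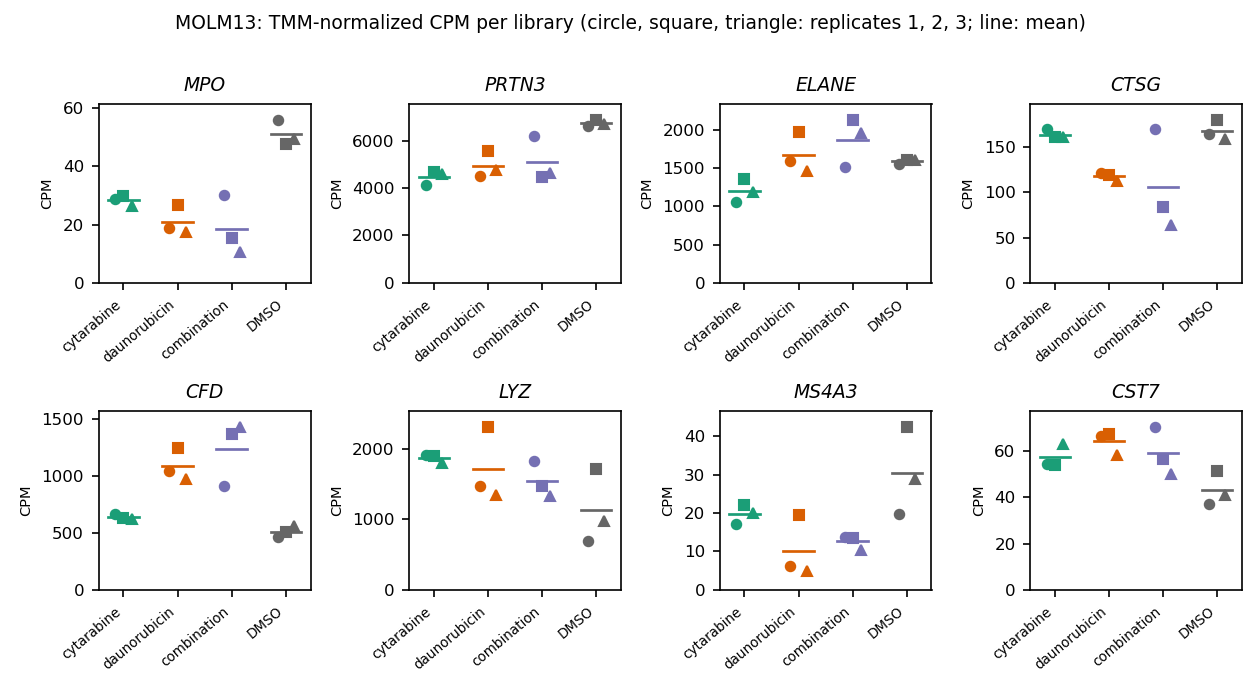
Granule genes in MOLM13 after cytarabine, daunorubicin, the combination and DMSO, in CPM on a linear axis from 0 in each panel, with points for the 3 libraries and a line at the mean. CFD lies above DMSO in all treated libraries and MPO below it, while ELANE after daunorubicin overlaps DMSO (1670 ± 265 against 1587 ± 28.4 CPM, SD).

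PRTN3 was the most abundant of these transcripts in MOLM13 and stayed so, with 4111, 4690 and 4595 CPM after cytarabine, 4489, 5540 and 4754 CPM after daunorubicin and 6207, 4467 and 4623 CPM after the combination, against 6633, 6869 and 6706 CPM with DMSO. The treated libraries all lay below DMSO, at -0.59 (SE 0.12, edgeR adjusted p = 0.00274), -0.45 (SE 0.12, adjusted p = 0.00752) and -0.40 (SE 0.12, adjusted p = 0.0138), none past the fold threshold. PRTN3 was also the single gene whose combination departed from the sum of the drugs in MOLM13, at 0.64 (SE 0.17, adjusted p = 0.0217), with 18.8% of all genes called, and it lost that call without cytarabine replicate 1, daunorubicin replicate 1 or daunorubicin replicate 3. ELANE stood at -0.41 (SE 0.14, adjusted p = 0.0378) after cytarabine, 0.07 (SE 0.14) after daunorubicin and 0.23 (SE 0.14) after the combination. With same-length copies added, AZU1 stood at -0.11 (SE 0.09), 0.43 (SE 0.09) and 0.43 (SE 0.09), and after daunorubicin and the combination its libraries lay above all with DMSO (522 to 555 and 532 to 560 CPM against 362 to 458 CPM). With the unassigned transcript added too, AZU1 stood at 0.12 (SE 0.06), 0.58 (SE 0.06) and 0.54 (SE 0.06), none called.

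CTSG in MOLM13 depended on 1 library. It was at 170, 83.8 and 63.5 CPM after the combination against 164, 180 and 159 CPM with DMSO, so combination replicate 1 lay inside the DMSO range and the other 2 far below it. The difference was -0.66 (SE 0.26, edgeR adjusted p = 0.0515), and -1.22 (adjusted p = 5.73e-06) and called without that library. Replicate 1 was also the highest of the combination libraries for MPO and PRTN3. LYZ rested on the DMSO side, at 688, 1725 and 979 CPM, and stood at 0.73 (SE 0.29), 0.60 (SE 0.29) and 0.45 (SE 0.29) after cytarabine, daunorubicin and the combination. Without DMSO replicate 2 it was called after cytarabine (1.17) and after daunorubicin (1.04). CST7 stood at 0.40, 0.57 and 0.45 (SE 0.14 each) and PRSS57 at 0.11, 0.23 and 0.14 (SE 0.11 each), none past the fold threshold.

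OCIAML3 gave no call. For cytarabine, daunorubicin and the combination 0 of 8 tested genes were called by edgeR's quasi-likelihood test or by DESeq2, and 0% of 16650 genes were called by edgeR. At an unadjusted p under 0.05 there were 0, 0 and 3 granule genes and 255, 5086 and 3873 of all genes, and DESeq2 called 1, 345 and 4 of all genes. Without both doubtful libraries 0 of 9 tested genes were called after cytarabine and after daunorubicin (0% and 4.15% of all genes) and 3 of 9 after the combination (7.86%). These were PRTN3 at -1.73 (SE 0.25, adjusted p = 0.000898), MS4A3 at -1.04 (SE 0.26, adjusted p = 0.00906) and PRSS57 at 1.76 (SE 0.47, adjusted p = 0.0131). In the combination library left out, PRTN3 and MS4A3 lay inside the DMSO range, and PRSS57 had 4 counts. The 3 calls were made only with that library left out and are no separate evidence of a change. The PRSS57 value rests on 11 and 24 counts after the combination against 3 to 6 counts with DMSO.

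CTSG, the most abundant granule gene of OCIAML3, had 1513, 1588 and 1803 CPM after cytarabine, 1009, 1446 and 1836 CPM after daunorubicin and 651, 1076 and 1874 CPM after the combination, against 1477, 1593 and 1837 CPM with DMSO. The groups overlapped, and the combination differed by -0.45 (SE 0.31, edgeR adjusted p = 0.364), or by -0.92 (SE 0.25, adjusted p = 0.0141) without both doubtful libraries. PRTN3 had 363, 338 and 230 CPM after cytarabine and 120, 175 and 239 CPM after daunorubicin, and the daunorubicin libraries lay below all with DMSO (-0.88, SE 0.42, adjusted p = 0.174, or -0.88, SE 0.21, adjusted p = 0.012 without both doubtful libraries). CFD had 495, 624 and 510 CPM after daunorubicin and 693, 724 and 357 CPM after the combination, against 326, 468 and 353 CPM with DMSO. The daunorubicin libraries and combination replicates 1 and 2 lay above every DMSO library. Daunorubicin stood at 0.51 (SE 0.26, adjusted p = 0.195), and at 0.51 (SE 0.17, adjusted p = 0.0446) without both doubtful libraries. The combination stood at 0.63 (SE 0.26, adjusted p = 0.209) and, without them, at 0.89 (SE 0.19, adjusted p = 0.00403), under the fold threshold. In the combination library left out, CFD lay inside the DMSO range and CTSG was the highest of its group. Their larger combination values without it follow from leaving it out and are no separate evidence of a change. After daunorubicin the differences of PRTN3 and CFD were nearly the same in both fits, and only their SE fell. ELANE, LYZ, CST7 and MPO differed by less than 1 on the log2 scale after every treatment, with or without both doubtful libraries. MS4A3 stood at -0.52 (SE 0.33) after the combination with all libraries, beside its call at -1.04 without the doubtful ones. AZU1 differed by less than 1 with same-length copies added and all libraries in the fit (-0.10, 0.02 and 0.27).

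**Figure D5:**
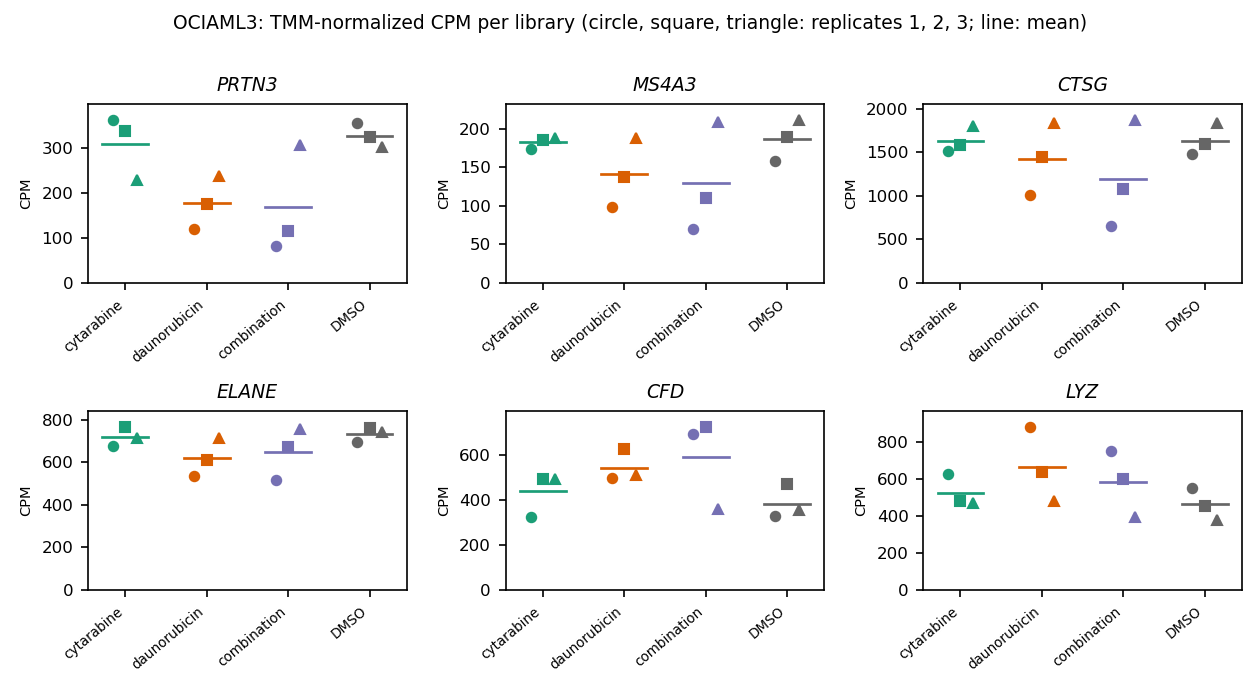
Granule genes in OCIAML3 after cytarabine, daunorubicin, the combination and DMSO, in CPM on a linear axis from 0 in each panel, with points for the 3 libraries and a line at the mean. For PRTN3, combination libraries at 81.4 and 115 CPM lie below DMSO (301 to 356 CPM) and the library labelled combination replicate 3 lies among it.

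Differences between lines in the response were tested as interactions over all 36 libraries, by the false discovery rate alone. The response to cytarabine differed between HL60 and OCIAML3 for 2 of 9 tested genes, MPO (-1.61, SE 0.42, edgeR adjusted p = 0.00586) and PRTN3 (-3.46, SE 0.97, adjusted p = 0.00954), with 23.1% of all genes called. The response to daunorubicin differed between HL60 and MOLM13 for MPO (1.13, SE 0.36, adjusted p = 0.0267) and CFD (-1.12, SE 0.37, adjusted p = 0.0293), 2 of 9 beside 20.5% of all genes. For the combination, HL60 and MOLM13 differed in PRTN3 (-4.93), CFD (-1.81) and CST7 (-1.04), 3 of 9 beside 27.4%, and HL60 and OCIAML3 in MPO (-1.79), PRTN3 (-4.41), CFD (-1.23), CST7 (-0.80) and PRSS57 (-1.49), 5 of 9 beside 26.7%. These comparisons share libraries. PRSS57 had only 3 to 6 counts with DMSO and 4 to 24 after the combination in OCIAML3. It was too low there to be tested within that line with all libraries. Its differences from OCIAML3, here and below, rest on these few counts. Without both doubtful libraries the same genes differed between HL60 and OCIAML3, for cytarabine MPO (-1.47) and PRTN3 (-3.64), beside 24.2% of all genes, and for the combination MPO (-1.60), PRTN3 (-3.67), CFD (-1.50), CST7 (-0.88) and PRSS57 (-2.02), beside 24.6%. Without them PRSS57 also differed for the combination in MOLM13 against OCIAML3 (-1.70, SE 0.46, adjusted p = 0.0245), beside 6.77% of all genes. With same-length copies added, AZU1 (-1.04, SE 0.20, adjusted p = 0.00125) and PRTN3 (-2.93, SE 0.89, adjusted p = 0.0362) differed for cytarabine in HL60 against MOLM13, beside 8.39% of all genes. AZU1 also differed for cytarabine in HL60 against OCIAML3 (-1.06, 23.1% of all genes), for daunorubicin in HL60 against MOLM13 (-0.67, 20.5%), and for the combination in HL60 against MOLM13 (-1.41, 27.4%) and OCIAML3 (-1.28, 26.7%). With the unassigned transcript added to AZU1 too, these 5 differences of AZU1 lay between -1.29 and -0.53 and passed.

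The other interactions gave 0 of 9 by edgeR's quasi-likelihood test. They were cytarabine in HL60 against MOLM13 (8.38% of all genes, 2 granule genes at an unadjusted p under 0.05) and MOLM13 against OCIAML3 (4.56%, 2), daunorubicin in HL60 against OCIAML3 (5.21%, 0) and MOLM13 against OCIAML3 (10.8%, 2), and the combination in MOLM13 against OCIAML3 (12.2%, 2). DESeq2 called 1 of 9 for daunorubicin in MOLM13 against OCIAML3, MPO, and 0 in the other 4. The fall of MPO after cytarabine in HL60 was therefore shown to differ from OCIAML3 but not from MOLM13 (-0.59, SE 0.36, adjusted p = 0.369). MPO was low in OCIAML3, with 75 to 82 counts per library with DMSO and 61 to 104 after cytarabine. With the replicate number as a block, 4 of 9 differed for cytarabine in HL60 against OCIAML3, 4 of 9 for daunorubicin and 5 of 9 for the combination in HL60 against MOLM13, and 7 of 9 for the combination in HL60 against OCIAML3, where LYZ (1.15, adjusted p = 0.00474) and MS4A3 (-1.49, adjusted p = 0.00897) were gained. Shares of all genes called with the block are not given here. These counts are therefore not read as results about the granule genes.

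Over 12 group means and 11282 genes, the genes whose log2 levels ran most like MPO were KCNH2 (Pearson r = 0.997), CTDP1 (0.993) and PLEKHG4 (0.991). ELANE ran most like MCOLN2 (0.999), THNSL1 (0.998) and THBS4 (0.998), and PRTN3 most like ERCC2 (0.979), PPT1 (0.971) and NME1-NME2 (0.968). The groups of a line share its cells, and no p is given for these likenesses. In libraries with at least 100 counts of the gene, 100% of the counts of CFD, CST7, ELANE, LYZ, PRSS57 and PRTN3 lay on protein-coding transcripts. The share was 98.4 to 99.8% of counts for CTSG, 98.7 to 100% for MPO in 25 libraries and 68.8 to 99.6% for MS4A3 in 33. On the TPM scale, which weighs short transcripts more, the lowest share was 84.3% for MPO (median 94.5%) and 48.7% for MS4A3 (median 81.4%).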

How the data were processed

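Total RNA of 36 libraries was sequenced as unstranded paired reads, so overlapping genes on opposite strands cannot be told apart. After quality control with FastQC 0.11.9, the authors used Salmon 1.8.0 and Ensembl transcripts of GRCh38 for quantification, and tested genes with edgeR 3.38.1. The deposited files hold estimated counts per transcript, not normalized, with TPM values that Salmon computed from these counts and the effective transcript lengths. The Ensembl release is not given in the sources used here.

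Of 252199 transcripts per library, 235378 were matched by identifier to GENCODE release 44 and summed to 59041 genes, and 16821 (3.99 to 4.52% of counts) were left out. Estimated counts were rounded to whole numbers, and TPM values were summed per gene and used for levels only. Low counts were removed by filterByExpr (min.count of 10, min.total.count of 15), and the rest were normalized by TMM and fitted per line with the quasi-likelihood test of edgeR 4.0.16 (R 4.3.3), with no replicate block. DMSO levels were fitted over 9 libraries and interactions over 36. Values in CPM are TMM-normalized. The standard error is the size of the log2 difference divided by the square root of F. The same test was tested on simulated data. DESeq2 1.42.0, limma 3.58.1, Python 3.11.15, numpy 2.4.6, pandas 2.3.3, matplotlib 3.10.9 and minimap2 2.31 served the alternatives, tables, figures and search for copies.

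In HL60, same-numbered libraries deviated together in all 6 pairs of groups (correlations of 0.127 to 0.295). They were read as paired by the data and not by the labels. The main HL60 fits still carry no block, and the fits with it are given as alternatives. MOLM13 correlations were also above 0 but lower (0.028 to 0.201), and those of OCIAML3 had both signs (-0.171 to 0.376). Neither of these lines was read as paired, so the division is one of degree. The 10 genes and all gene lists were chosen with earlier results of these data known. Each of the 10 genes was named in every comparison, other genes only from those lists, and the 3 most alike genes were named for MPO, ELANE and PRTN3. The alternatives are given in the closing section. The additions of same-length copies and of the unassigned transcript were chosen after the data had been seen, and a planned addition of PRTN3 copies by name was not run because no table used here names them.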

Additional observations from a re-analysis of the deposited data

Results flagged for a closer look

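Interaction tests called 12 differences between lines in the response of single genes. On the log2 scale, cytarabine in HL60 minus OCIAML3 gave -1.61 for MPO and -3.46 for PRTN3, and daunorubicin in HL60 minus MOLM13 gave 1.13 for MPO and -1.12 for CFD. The combination in HL60 minus MOLM13 gave -1.04 for CST7, -4.93 for PRTN3 and -1.81 for CFD. The combination in HL60 minus OCIAML3 gave -1.79 for MPO, -0.80 for CST7, -1.49 for PRSS57, -4.41 for PRTN3 and -1.23 for CFD. The PRSS57 value rests on few OCIAML3 counts, 3 to 6 with DMSO and 4 to 24 after the combination. In this order, 2 of 9 tested genes differed beside 23.1% of all genes, and 2 of 9 beside 20.5%. Then 3 of 9 differed beside 27.4%, and 5 of 9 beside 26.7%. The first 3 counts lay near these shares, and the other interactions gave 0 of 9.

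Transcripts that no gene table names, and that entered the comparisons above only where their addition is stated, carried more reads than with DMSO in several groups and fewer in others. The values are mean CPM relative to the library total. The transcript of an AZU1 length was at 522 after daunorubicin and 531 after the combination against 371 with DMSO in MOLM13, and at 382 after the combination against 308 with DMSO in OCIAML3. In HL60 that transcript was lower, at 25.4 after cytarabine and 28.6 after the combination against 49.85 with DMSO. The transcript of an ELANE length was at 311 after daunorubicin and 344 after the combination against 260 with DMSO in MOLM13. The unassigned transcript of 908 bases was at 61.3 after daunorubicin and 36.7 after the combination against 47.5 with DMSO in HL60. In MOLM13 it was at 1210 with cytarabine, 1610 with daunorubicin and 1560 with both drugs, against 989 with DMSO. In OCIAML3 it was at 284 after daunorubicin and 320 after the combination against 229 with DMSO, and at 252 in the library labelled combination replicate 3.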

How the results depend on the processing

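Across 3387 recomputed values of single genes, 3325 kept their side of the threshold, of which 72 uncalled values changed sign, 12 lost a call, 50 gained 1 and 0 called values turned sign. Of 409 recomputed counts 374 stayed within 1.5 times. With no fold threshold the counts of called granule genes were 1 (HL60 daunorubicin), 4 (MOLM13 cytarabine), 5 (MOLM13 daunorubicin) and 5 (MOLM13 combination). With no low-count filter the combination departed from the sum of the drugs for 5 genes in HL60 and 2 in MOLM13, and with DESeq2 for 2 in MOLM13. With the replicate block that count was 4 in HL60 and 2 in MOLM13, and the fits with the block gave 1 and 4 differing genes for cytarabine (HL60 against MOLM13, HL60 against OCIAML3), 4 and 2 for daunorubicin (HL60 against MOLM13, MOLM13 against OCIAML3) and 5 for the combination (HL60 against MOLM13), with 7 for the combination in HL60 against OCIAML3. The block changed no call against DMSO. DESeq2 gave 1 for daunorubicin in MOLM13 against OCIAML3 and 5 for the combination in HL60 against MOLM13. Same-length copies gave 2 for cytarabine in HL60 against MOLM13, also with the unassigned transcript added to AZU1 or to ELANE. Added to AZU1 it gave 1 for daunorubicin in MOLM13 against OCIAML3, and added to ELANE 5 for the combination in HL60 against MOLM13. Without both doubtful libraries OCIAML3 gave 3 genes after the combination and 1 for the combination in MOLM13 against OCIAML3. Leaving out each library in turn gave 0 to 2 genes departing from the sum in HL60 and 0 to 4 in MOLM13, 0 to 1 called after cytarabine in MOLM13 and 0 to 3 after the combination in OCIAML3. Where no share of all genes is printed above for a setting, it is not given here. Such counts show how stable the calls were and are not read as results about the granule genes. The causes were not tested. ELANE in HL60 and PRSS57 in OCIAML3 rest on very few counts, and how well changes under 4-fold are detected was not simulated.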
